A study of Mus musculus with 33 samples.

Results

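The genes described here are the ligand PTHrP (Pthlh), its receptor Pth1r, the calcium-sensing receptor Casr and 6 genes known to respond to cyclic AMP (cAMP): Nr4a1, Nr4a2, Crem, Pde4b, Pde4d and Sik1. They were taken by symbol from the table of read counts, 9 of its 55487 genes, and were followed through all 33 libraries. The study crossed the MMTV-PyMT mouse, in which the MMTV promoter drives the polyoma middle T oncogene in the mammary epithelium, to mice with a floxed Pthrp gene, and asked how loss of PTHrP changes tumor onset and progression. PTHrP WT tumors (PyMT, Pthrp wt/wt) were taken at 6, 8 and 10 weeks of age from 3 mice each and at 12 weeks from 1 mouse, and PTHrP KO tumors (PyMT, Pthrp flox/flox) at 8, 10 and 12 weeks from 3 mice each. Tumor-free glands had no PyMT: WT glands came from weeks 6, 8, 10 and 12 and KO glands from weeks 8, 10 and 12, with 2 mice each. Every mouse, controls included, carried MMTV-Cre and the ROSA mT/mG reporter, in which Cre switches cells from a red to a green membrane protein, on an FVB background into which the floxed allele had been bred from C57BL/6. The tissue was digested, kept in medium with serum for days rather than hours and sorted for GFP+ cells, so every library is total RNA of cells that had passed through culture and a sort. In these bulk samples, fewer cells of a type and less RNA per cell cannot be told apart.

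PTHrP is a secreted peptide that signals through the same class B G protein-coupled receptor as parathyroid hormone. The receptor couples to Gs, adenylyl cyclase then makes cAMP, protein kinase A is released, and CREB is phosphorylated and binds the cAMP response element (CRE) of its target genes; several targets, among them the phosphodiesterases and CREM, act back on the pathway. In the breast PTHrP made by the epithelium is known to act on the neighbouring mesenchyme in development, to enter milk, and to be released by tumors that cause hypercalcemia, while the calcium-sensing receptor links extracellular calcium to PTHrP output.

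Nr4a1 and Nr4a2, nuclear orphan receptors that are induced within minutes of a cAMP pulse, are the targets whose promoters are printed here. They were taken because both carried more CRE cores outside the full palindrome TGACGTCA than almost any other promoter. The sequences are those of RefSeq on GRCm38.p6, from 250 bases before to 50 bases after the start site, 5′ to 3′ on the strand of the gene, with every CRE core (TGACG, or CGTCA on the other strand) in capitals. The Nr4a1 window is chr15:101266596-101266895 on the plus strand and the Nr4a2 window chr2:57123954-57124253 on the minus strand.
Nr4a1: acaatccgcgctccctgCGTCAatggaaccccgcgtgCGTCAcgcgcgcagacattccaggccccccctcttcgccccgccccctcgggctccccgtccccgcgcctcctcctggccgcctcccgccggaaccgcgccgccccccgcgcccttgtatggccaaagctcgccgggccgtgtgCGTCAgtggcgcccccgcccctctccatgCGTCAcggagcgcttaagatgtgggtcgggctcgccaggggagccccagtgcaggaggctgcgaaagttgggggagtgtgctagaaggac
Nr4a2: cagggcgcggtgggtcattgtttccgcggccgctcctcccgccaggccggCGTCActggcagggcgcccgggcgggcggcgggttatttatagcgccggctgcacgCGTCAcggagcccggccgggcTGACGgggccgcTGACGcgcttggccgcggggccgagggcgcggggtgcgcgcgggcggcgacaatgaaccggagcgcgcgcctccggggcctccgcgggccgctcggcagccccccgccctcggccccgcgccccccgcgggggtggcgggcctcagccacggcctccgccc
Each window held 4 cores. With cores inside the full palindrome not counted, at least 4 were found in 33 of 32851 mouse promoter windows of this length (0.1%). The full palindrome TGACGTCA was in neither the Nr4a1 nor the Nr4a2 window, nor in any of the 12 windows listed for 7 of the genes. It was in 588 (1.79%) of all windows. A core or the full palindrome was in 20.8% of all windows. Pth1r and Pde4b each had a window with a core, and Pthlh, Casr and Pde4d had none. A match of letters does not show that a factor binds there.

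The libraries held 28419983 to 130981596 counted reads (median 46351179). Levels are given as CPM, the reads of a gene relative to all counted reads of its library, scaled by the trimmed mean of M values (TMM). Reads from ribosomal RNA made up a larger share of the KO libraries, with a median of 0.952% in KO tumors and 6.2% in KO glands against 0.0499% in WT tumors and 0.0116% in WT glands. Markers of luminal epithelium were abundant, and the 10 of the list summed to between 4934 and 12704 CPM over the 33 libraries. All 10 basal or myoepithelial markers were lower in tumors, where they summed to 989.5 to 4981 CPM, than in glands, where they summed to 4789 to 18193 CPM. The sum of the 10 fibroblast markers was highest in WT glands (78.0 to 1248 CPM, median 239), but Fbn1 alone had a median of 210 CPM there, and other markers were ordered differently, with Pdgfra at a median of 4.01 CPM in WT glands and 8.50 CPM in WT tumors. The sum of the immediate early genes, a group of 23 that also responds to handling of cells, was lowest in WT tumors (median 5377 CPM against 6520 in KO tumors). The part of these differences in the results on the cAMP genes was not tested beyond the values given with them.

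Per kilobase of exon the median level over the 33 libraries ran from Sik1 (34.4 CPM per kb) through Pde4b (6.92), Nr4a1 (6.16), Crem (2.48), Pthlh (1.72), Pde4d (1.70) and Nr4a2 (1.33) down to Pth1r (0.0427). Casr had a median of 0. The ligand was therefore at a level where most libraries held over 100 reads of it, whereas its receptor had a median of 7 reads per library and the calcium-sensing receptor of 0. All 9 genes passed the filter on low counts, which asked for 10 reads summed over the libraries, but Pth1r and Casr passed it with 248 and 41 reads in all.

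**Figure D1:**
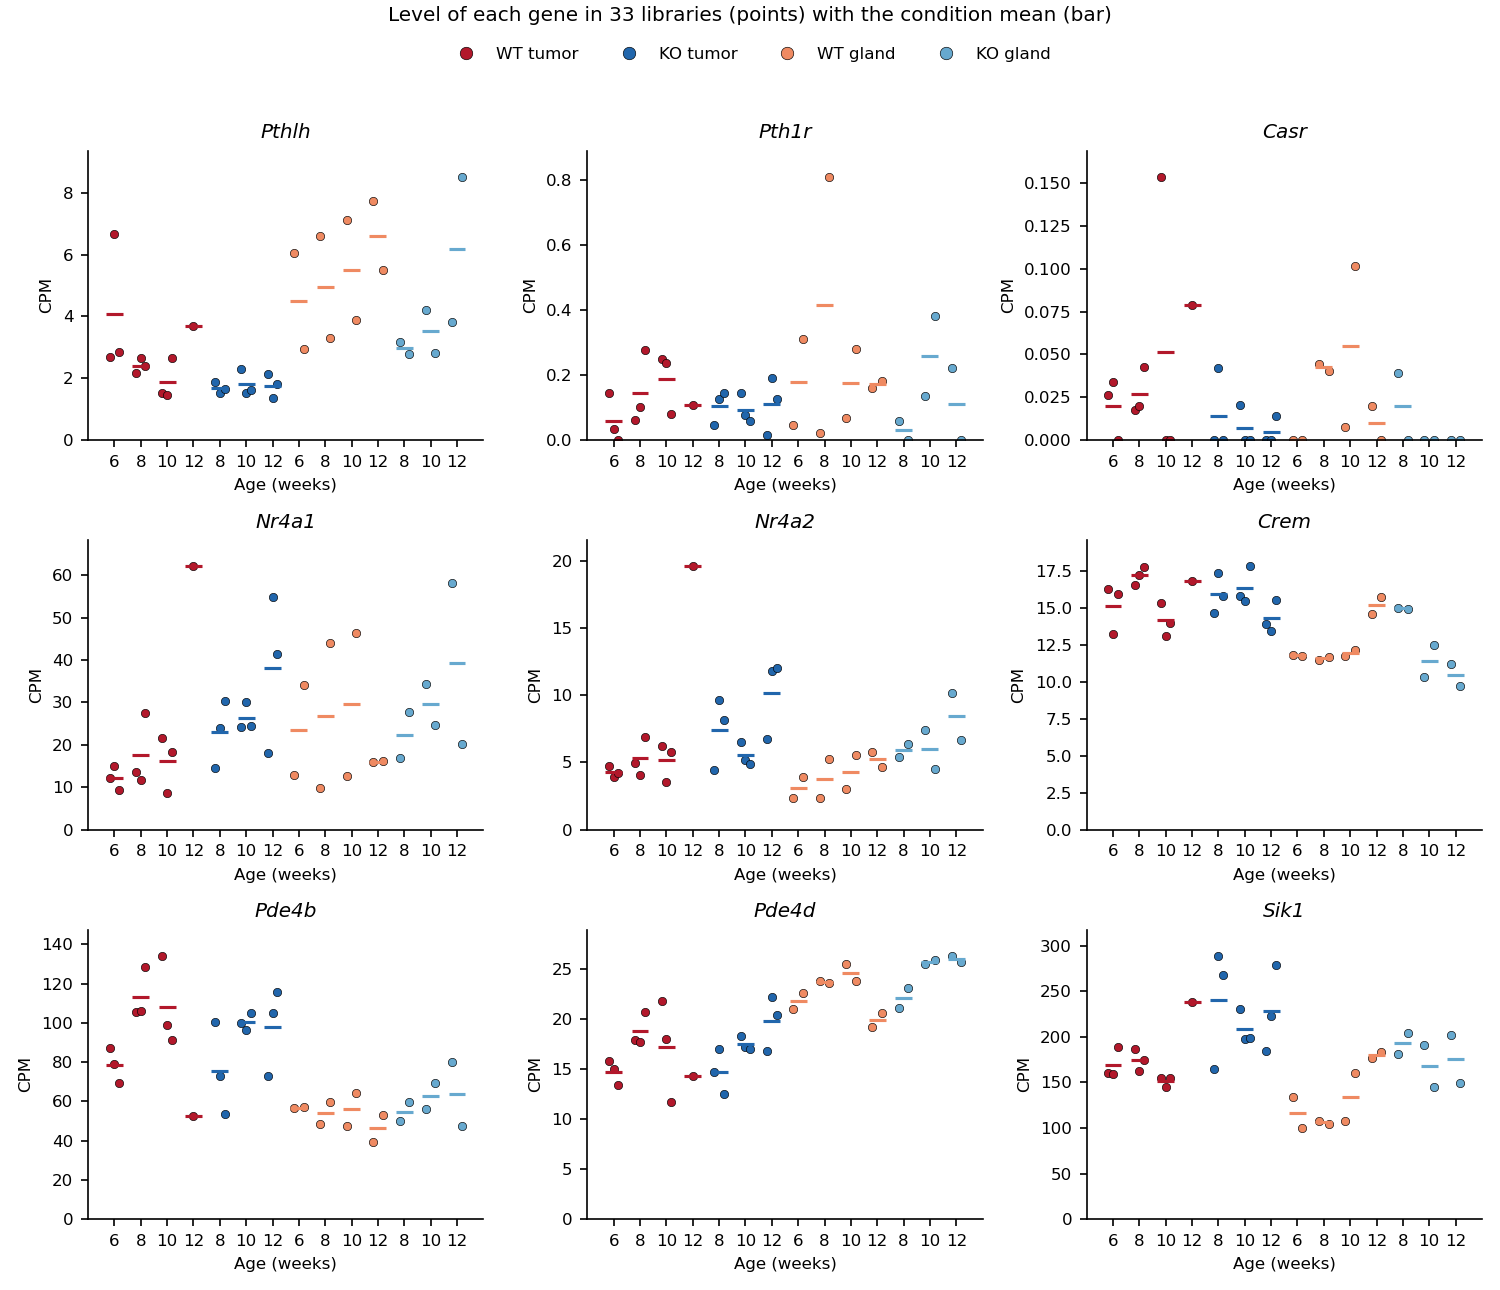
TMM-scaled CPM of each of the 9 genes (vertical axes, each with its own scale) by tissue, genotype and week (horizontal axis); each point is a library and each bar the mean of its condition. Pthlh and Pde4d sit higher in glands, Pde4b higher in tumors, and the WT tumor of week 12 is the highest of the WT tumors for Nr4a1 (62.1 CPM), Nr4a2 (19.6 CPM) and Sik1 (239 CPM).

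Pthlh (ENSMUSG00000048776, chr6:147252101-147264183, minus strand, GRCm38) encodes the peptide itself and is the gene that was deleted. Cre removes the region of exon 4 between the loxP sites, and counts summed over the whole gene do not show that exon apart, so the level of the gene does not check the genotype of a library. The paper reports that reads on that exon were absent from its KO samples. In WT tumors Pthlh was 2.69, 6.67 and 2.85 CPM at week 6, 2.16, 2.66 and 2.38 CPM at week 8, 1.54, 1.46 and 2.65 CPM at week 10, and 3.68 CPM in the library of week 12. In KO tumors it was 1.89, 1.51 and 1.64 CPM at week 8, 2.29, 1.51 and 1.64 CPM at week 10, and 2.13, 1.35 and 1.80 CPM at week 12. The KO tumors thus lay in a narrow range, which overlapped the WT tumors of week 8 at its upper end and held 2 of the 3 WT tumors of week 10 near its lower end. In WT glands it was 6.06 and 2.93 CPM at week 6, 6.60 and 3.29 CPM at week 8, 7.13 and 3.88 CPM at week 10, and 7.73 and 5.51 CPM at week 12. In KO glands it was 3.16 and 2.79 CPM at week 8, 4.23 and 2.82 CPM at week 10, and 3.82 and 8.52 CPM at week 12. The library with the most Pthlh of all 33 was therefore a KO gland. It was also the library with the highest share of ribosomal RNA (18.8% of its reads) and held 28683384 reads, near the low end of depth, and the part of either in its level was not tested.

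Ordered by the mean of each condition, with the single WT tumor of week 12 left out, Pthlh ran from WT glands of week 12 (6.62 ± 1.57 CPM, SD, n = 2) through KO glands of week 12 (6.17 ± 3.32, n = 2), WT glands of weeks 10 (5.51 ± 2.30, n = 2), 8 (4.95 ± 2.34, n = 2) and 6 (4.50 ± 2.21, n = 2) to WT tumors of week 6 (4.07 ± 2.26, n = 3). Below them came KO glands of weeks 10 (3.52 ± 0.992, n = 2) and 8 (2.98 ± 0.261, n = 2). At the low end were WT tumors of weeks 8 (2.40 ± 0.249, n = 3) and 10 (1.88 ± 0.662, n = 3) and KO tumors of weeks 10 (1.81 ± 0.416, n = 3), 12 (1.76 ± 0.391, n = 3) and 8 (1.68 ± 0.192, n = 3). Neighbours in this order overlapped except for KO glands and WT tumors of week 8.

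Between tissues Pthlh was lower in tumors than in glands of the same genotype and week, with a log2 fold change (log2FC) of −1.05 ± 0.17 (SE) over the mean of the 6 pairs of conditions, or 0.482-fold, and an adjusted p of 2.46e-05 in edgeR's quasi-likelihood test with Benjamini-Hochberg adjustment over 36527 genes. All tumors lay below all glands in 5 of the 6 pairs, and they overlapped at week 6 in WT. With a gene called at a fold over 1.5 and an adjusted p under 0.1, single pairs called it at week 10 in WT (−1.55 ± 0.41, adjusted p = 0.0246) and at week 12 in KO (−1.79 ± 0.42, adjusted p = 0.0104). Each of these calls rested on single libraries: the first was lost without WT tumor replicate 1 (adjusted p = 0.108) or WT gland replicate 1 (adjusted p = 0.378), and the second without KO gland replicate 2, the library at 8.52 CPM (−1.06, adjusted p = 0.336). At week 8 in WT the log2FC was −1.04 (adjusted p = 0.141), which DESeq2 called (adjusted p = 0.0619), as did edgeR without WT gland replicate 2 (−1.46, adjusted p = 0.0873). The call over the 6 pairs held in every fit that left out a library.

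Between genotypes the differences in Pthlh did not pass. In tumors matched by stage, which sets WT weeks 6, 8 and 10 against KO weeks 8, 10 and 12 because the KO tumors appeared later, the difference of WT from KO was 0.59 ± 0.22 on the log2 scale (adjusted p = 0.229), with a 95% interval of 0.16 to 1.02. Matched by week (weeks 8 and 10), the difference was 0.28 ± 0.27 (adjusted p = 0.738), and in glands of weeks 8, 10 and 12 it was 0.50 ± 0.26 (adjusted p = 0.455). None of the 3 passed the test in edgeR, and DESeq2 called the first (adjusted p = 0.0798). Within WT tumors, week 10 against week 6 gave −1.11 ± 0.38 (adjusted p = 0.486), and within KO tumors, week 12 against week 8 gave 0.068 ± 0.38 (adjusted p = 1). Over time none of the 9 genes was called in WT tumors (background 0.011%), KO tumors (0%) or WT glands (week 12 against week 6, 0.35%), and DESeq2 called 0. An unadjusted p under 0.05 in edgeR was found for 2, 1 and 2 of them, beside 8.55%, 7.88% and 8.2% of all genes. They were Pde4b and Pthlh in WT tumors, Pde4d in KO tumors, and Sik1 and Crem in WT glands.

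Pth1r (ENSMUSG00000032492, chr9:110722085-110747145, minus strand) encodes the receptor of PTHrP and parathyroid hormone, in a breast known mostly for expression in stromal cells. It was read 11, 2 and 0 times in the WT tumors of week 6, 7, 5 and 13 times at week 8, 13, 10 and 4 times at week 10 and 11 times at week 12. In KO tumors the reads were 4, 6 and 6 at week 8, 7, 3 and 2 at week 10, and 1, 9 and 9 at week 12. In WT glands they were 2 and 17 at week 6, 1 and 40 at week 8, 9 and 11 at week 10, and 8 and 8 at week 12, and in KO glands 3 and 0, 4 and 14, and 8 and 0 at weeks 8, 10 and 12. High and low libraries occurred in every group, and 10 of 33 libraries held 3 reads or fewer. Tumors and glands overlapped in all 6 pairs (log2FC −0.51 ± 0.51, 95% interval −1.52 to 0.49, adjusted p = 0.652). WT and KO tumors by stage gave 0.27 ± 0.62 (adjusted p = 0.98) with an interval of −0.95 to 1.49, which covers changes of more than 1.5-fold in both directions at this depth. Myl3, which overlaps the gene on the opposite strand, had 0 to 7 reads per library, and whether the counting used the strand is not given in the sources used here.

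Casr (ENSMUSG00000051980, chr16:36493696-36562141, minus strand) encodes the calcium-sensing receptor, which in the lactating breast lowers PTHrP output when calcium is plentiful. It was at or under 3 reads in 30 libraries and at 0 in 17 of them. The highest counts were 8 reads in a WT tumor of week 10, 8 in the WT tumor of week 12 and 4 in a WT gland of week 10. Summed over libraries there were 25 reads in the 10 WT tumors, 4 in the 9 KO tumors, 10 in the 8 WT glands and 2 in the 6 KO glands. With both genotypes at or near the floor of 3 reads no fold is given, and whether Casr followed PTHrP or genotype could not be read at this depth.

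Pde4b (ENSMUSG00000028525, chr4:102087543-102607259, plus strand), a phosphodiesterase that breaks down cAMP, was the only one of the 9 genes called higher in tumors over the 6 pairs. In WT tumors it was 87.3, 78.8 and 69.5 CPM at week 6, 106, 106 and 128 CPM at week 8, 134, 98.9 and 91.5 CPM at week 10, and 52.3 CPM at week 12. In KO tumors it was 100.3, 73.1 and 53.4 CPM at week 8, 99.9, 96.5 and 105 CPM at week 10, and 73.0, 105 and 116 CPM at week 12. The glands were lower and more alike, from 39.3 to 64.4 CPM in WT (median 54.9) and from 47.6 to 79.8 CPM in KO (median 57.9). All tumors lay above all glands in 4 of the 6 pairs. The log2FC over the 6 pairs was 0.71 ± 0.10, or 1.63-fold (adjusted p = 3.39e-06), and single pairs called it in WT at week 8 (1.06 ± 0.25, adjusted p = 0.00586) and week 10 (0.95 ± 0.24, adjusted p = 0.0201). The call at week 8 was lost without WT gland replicate 1, and the call at week 10 without WT tumor replicate 1 or WT gland replicate 1.

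Pde4d (ENSMUSG00000021699, chr13:108449948-109953461, plus strand), a phosphodiesterase of the same family, went the other way. It ran from 11.7 to 22.2 CPM in tumors and from 19.2 to 26.3 CPM in glands, and all tumors lay below all glands in each of the 6 pairs. The log2FC was −0.49 ± 0.07, or 0.711-fold (adjusted p = 6.68e-06), past the adjusted p but not the fold. In the 19 tumors the levels of Pde4b and Pde4d nevertheless ran in the same order (Spearman rho 0.80, a description over libraries that share depth and scaling).

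Crem (ENSMUSG00000063889), a CREB relative whose short ICER forms repress CRE promoters, was the steadiest of the genes. It lay between 13.1 and 17.8 CPM in tumors and between 9.70 and 15.7 CPM in glands, with tumors above glands in 5 of the 6 pairs. The log2FC of 0.37 ± 0.06, or 1.29-fold, passed the adjusted p (1.15e-05) and not the fold. Counts per gene do not separate ICER from the longer forms, and Gm6225, which overlaps Crem on the opposite strand, had 28 to 168 reads per library.

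Sik1 (ENSMUSG00000024042, chr17:31844250-31855804, minus strand), a kinase that is induced by cAMP and holds back the CREB coactivators, had the highest level per kilobase. In WT tumors it was 160.4, 159 and 189 CPM at week 6, 186, 163 and 175 CPM at week 8, 155, 145 and 155 CPM at week 10, and 239 CPM at week 12. In KO tumors it was 165, 289 and 268 CPM at week 8, 230.2, 198 and 198 CPM at week 10, and 184, 223 and 279 CPM at week 12. In WT glands it ran from 99.7 to 183 CPM (median 121) and in KO glands from 145 to 204 CPM (median 186). Tumors lay above glands in 3 of the 6 pairs (log2FC 0.41 ± 0.08, 1.33-fold, adjusted p = 0.000538), and WT at week 8 was called on its own (0.72 ± 0.21, adjusted p = 0.0318), a call lost without either of its 2 gland libraries.

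Nr4a1 and Nr4a2, whose promoters are shown above, were not called between tissues. Nr4a1 (ENSMUSG00000023034, chr15:101254269-101274795, plus strand) was 12.2, 15.1 and 9.30 CPM in the WT tumors of week 6, 13.6, 11.7 and 27.5 CPM at week 8, 21.6, 8.65 and 18.4 CPM at week 10 and 62.1 CPM at week 12. In KO tumors it was 14.6, 23.9 and 30.4 CPM at week 8, 24.2, 30.2 and 24.4 CPM at week 10, and 18.02, 54.9 and 41.5 CPM at week 12. In WT glands it was 12.9 and 34.2, 9.70 and 43.9, 12.8 and 46.3, and 15.9 and 16.2 CPM at weeks 6, 8, 10 and 12, and in KO glands 16.9 and 27.7, 34.5 and 24.6, and 58.3 and 20.2 CPM at weeks 8, 10 and 12. The mice of a condition could lie far apart, as in the WT glands of weeks 6, 8 and 10, and tumors and glands overlapped in all 6 pairs (log2FC −0.43 ± 0.24, adjusted p = 0.237). Nr4a2 (ENSMUSG00000026826, chr2:57106830-57124003, minus strand) ran from 3.57 to 19.6 CPM in WT tumors (median 4.86), from 4.40 to 12.0 CPM in KO tumors (median 6.77), from 2.33 to 5.79 CPM in WT glands (median 4.26) and from 4.53 to 10.2 CPM in KO glands (median 6.55), with all 6 pairs overlapping (0.28 ± 0.15, adjusted p = 0.229). The levels of both receptors ordered the libraries alike, with a Spearman rho of 0.85 in the 19 tumors and 0.64 in the 14 glands.

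Between tissues 2 of the 9 genes, Pthlh and Pde4b, were thus called over the 6 pairs, a share of a small list beside 14.9% of all genes tested, and 5 of 9 passed the adjusted p at any fold beside 26.5% of all genes. In single pairs the number of the 9 genes called was 0 in WT at week 6 (background 5.86%), 2 in WT at week 8 (9.19%), 2 in WT at week 10 (6.13%), 0 in KO at week 8 (2.49%), 0 in KO at week 10 (5.66%) and 1 in KO at week 12 (6.11%). In the pairs with none, edgeR gave 3, 1 and 4 of the 9 genes an unadjusted p under 0.05, beside 15.5%, 10.6% and 15.1% of all genes, and DESeq2 called 0, 1 (Pde4d) and 1 (Pde4b). The tumor effect of WT mice was compared with that of KO mice over weeks 8 and 10 in an interaction term, where none of the 9 genes was called by edgeR (background 0.00548%) or DESeq2 and 0 had an unadjusted p under 0.05, beside 5.58% of all genes. Pde4b came nearest, with a tumor effect larger in WT by 0.43 ± 0.24 (adjusted p = 0.948).

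**Figure D2:**
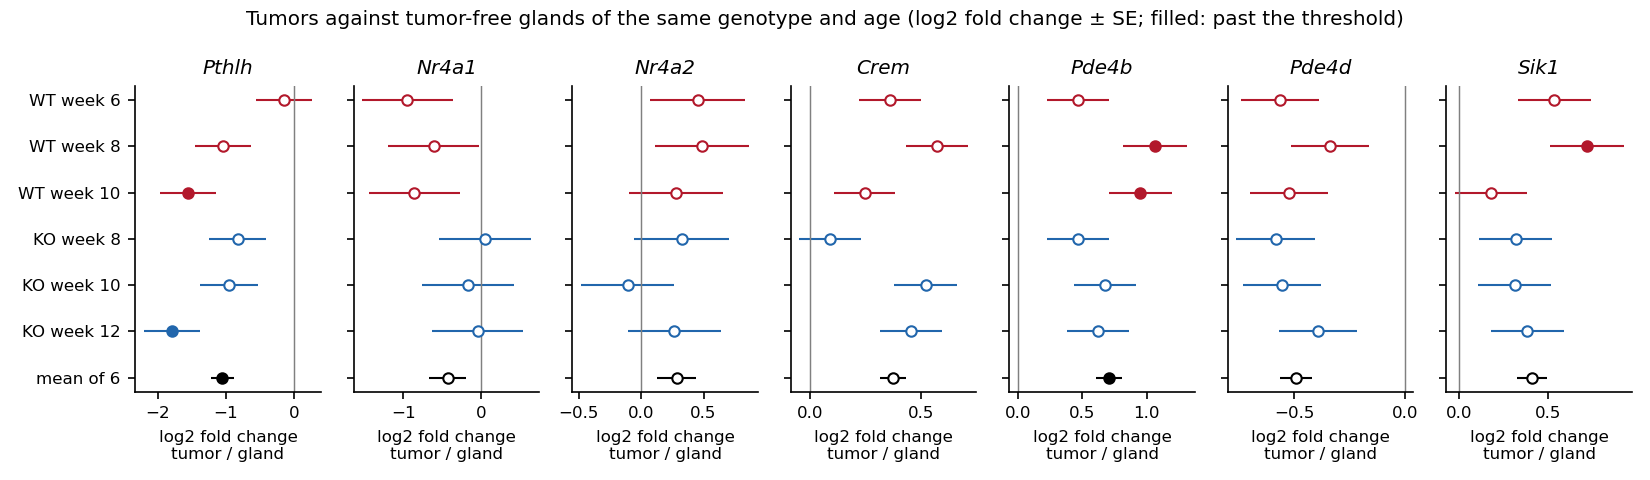
Log2FC of tumor over gland (horizontal axes, each with its own scale, bars are 1 SE) for 7 of the genes in each of the 6 pairs of genotype and week and for their mean (vertical axis), with filled points for those past both thresholds. Pde4b lies right of 0 and Pthlh left of 0 in all 6 pairs, and besides the means of Pthlh and Pde4b the filled points are few: Pde4b and Sik1 in WT at week 8, Pde4b and Pthlh in WT at week 10 and Pthlh in KO at week 12.

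Between genotypes Sik1 was the gene that passed the adjusted p. In tumors matched by stage it was lower in WT than in KO by 0.45 ± 0.11 on the log2 scale, or 0.731-fold, with an adjusted p of 0.0331, and it did not reach the fold. Nr4a1 was at −0.91 ± 0.31 (adjusted p = 0.172, 95% interval −1.50 to −0.31) and Nr4a2 at −0.61 ± 0.19 (adjusted p = 0.139, interval −0.99 to −0.23). Pde4b (0.12 ± 0.12), Crem (−0.0060 ± 0.071) and Pde4d (−0.035 ± 0.092) were near 0, the widest of their 95% intervals reaching 0.36 on the log2 scale. Called at both thresholds were 0 of the 9 genes (background 1.11%), and past the adjusted p at any fold was 1 (background 2.13%). An unadjusted p under 0.05 was found in edgeR for 4 of them (Nr4a1, Sik1, Nr4a2 and Pthlh), beside 13.2% of all genes, and DESeq2 called 3, Nr4a1 (adjusted p = 0.0419), Nr4a2 (adjusted p = 0.0328) and Pthlh (adjusted p = 0.0798). Without KO tumor week 8 replicate 1, the KO tumor with the least Nr4a1, edgeR called Nr4a1 (adjusted p = 0.0919) and Nr4a2 (adjusted p = 0.0405), and without KO tumor week 12 replicate 1 it called Nr4a2 (adjusted p = 0.0903).

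At matched weeks the differences of the same 3 genes in tumors missed the threshold: −0.46 ± 0.13 for Sik1 (adjusted p = 0.135), −0.54 ± 0.37 for Nr4a1 (adjusted p = 0.626) and −0.29 ± 0.24 for Nr4a2 (adjusted p = 0.689). In glands they were −0.38 ± 0.13 for Sik1 (adjusted p = 0.192), −0.34 ± 0.37 for Nr4a1 (adjusted p = 0.82) and −0.61 ± 0.24 for Nr4a2 (adjusted p = 0.282). At matched weeks none of the 9 genes was called in tumors (background 0.512%) or in glands (background 0.906%), and DESeq2 called 0 in both. An unadjusted p under 0.05 in edgeR was found for 2 of the 9 in tumors, beside 10.9% of all genes, and for 2 in glands, beside 12.4%. In tumors these were Sik1 and Pde4b, the latter higher in WT by 0.34 ± 0.15 (adjusted p = 0.394), and in glands Sik1 and Nr4a2. The comparisons by stage and by week share tumor libraries.

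The immediate early genes moved with these values, and their part in them was not tested beyond the following fits. With the summed level of that list as a term, a check added after the data were seen, the difference by stage was −0.32 for Nr4a1, −0.26 for Nr4a2 and −0.24 for Sik1 (adjusted p = 0.533), and by week Nr4a1 and Nr4a2 were on the other side of 0, at 0.12 and 0.10. With the ribosomal RNA share as a term, Sik1 by stage kept an adjusted p of 0.076. The level of Pthlh as a term left Sik1 at −0.41 (adjusted p = 0.169), Nr4a1 at −0.40 and Nr4a2 at −0.38. Across the 19 tumors the immediate early sum and Sik1 had a Pearson r of 0.679 (permutation p = 0.00119, adjusted p = 0.0857 over 72 relations, 0.544 without the 2 most distant libraries; Spearman rho 0.716, permutation p = 0.00098).

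Other genes that cAMP induces were taken from a list of 12. In tumors by stage 6 of them were lower in WT and 0 higher, with a median log2FC of −0.90 beside 0.057 for all genes, and 0.824% of all genes were called lower. Dusp1, a phosphatase that switches off MAP kinases, was 17.3 to 225 CPM in WT tumors (median 46.6) and 84.6 to 239 CPM in KO tumors (median 128), a log2FC of −1.63 ± 0.22 (adjusted p = 0.000272). Atf3, a stress-induced relative of CREB, was 15.1 to 87.8 CPM against 38.9 to 117 CPM (−1.36 ± 0.23, adjusted p = 0.00458). Nr4a3, the third receptor of the Nr4a family, was lower by the same test (−1.16 ± 0.27, adjusted p = 0.0325), and Per1, Fos and Irs2 made up the 6. The ranges of WT and KO overlapped for Dusp1 and Atf3, counting the WT tumor of week 12, which is not in the contrast. By week 4 of the 12 were lower in WT tumors and 0 higher, beside 0.37% of all genes called lower (Dusp1 −1.73, Atf3 −1.45, Per1 −0.94 and Irs2), while 0 of 12 were called in glands. Of the 12 genes 5 are also on the immediate early list, so a term for that list removes part of their own signal. With it 3 genes were called by stage and 0 by week. With the ribosomal RNA share as a term, 6 of the 12 were called lower by stage and 4 by week, as many as without it.

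**Figure D3:**
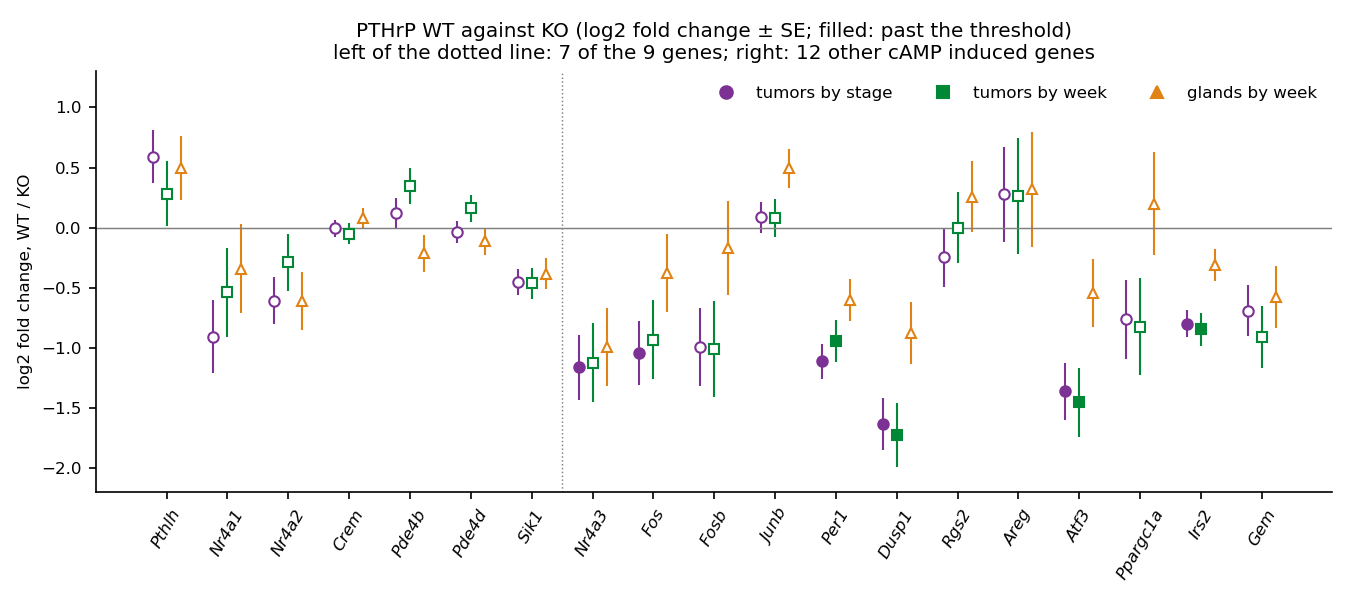
Log2FC of WT over KO (vertical axis, bars are 1 SE) for 7 of the genes and, right of the dotted line, the 12 other cAMP induced genes (horizontal axis) in tumors by stage, tumors by week and glands by week, with filled points for those past both thresholds. Most of the cAMP induced genes lie below 0, Dusp1 farthest (−1.63 by stage and −1.73 by week), whereas Pde4b, Pde4d and Crem lie near 0 by stage. Pde4b is at 0.34 in tumors by week and at −0.21 in glands.

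Upstream of the targets, 1 of 9 CREB factors and coactivators was lower in WT tumors by stage and 0 higher, beside the 0.824% of all genes called lower by stage and 0.37% by week. This was Crtc2, the coactivator that Sik kinases keep out of the nucleus (−0.64 ± 0.11, adjusted p = 0.00458, −0.64 by week), which fell under the fold threshold with the ribosomal RNA share as a term, by stage and by week, and by stage with the Pthlh level as a term, while still past the adjusted p. Of 11 G proteins and arrestins, Gnai1, an inhibitor of adenylyl cyclase, was lower by stage (−0.85 ± 0.25, adjusted p = 0.0969) and by week (−1.19 ± 0.30, adjusted p = 0.0962), and not called with the ribosomal RNA share as a term. The call of Gnai1 held in only 4 of 18 fits that left out a library by stage and in 3 of 12 by week. That of Crtc2 held in 17 of 18 by stage and in 8 of 12 by week. None of the 9 adenylyl cyclases, 9 subunits and inhibitors of protein kinase A, 14 other phosphodiesterases, 4 proprotein convertases and 6 tested receptors and ligands was called between genotypes in tumors, where 1.11% of all genes were called by stage and 0.512% by week in either direction.

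Between tissues more genes of these lists were called. Of 9 adenylyl cyclases 3 were lower in tumors and 0 higher: Adcy3 (−1.80 ± 0.13), Adcy7 (−1.67 ± 0.17) and Adcy4 (−2.44 ± 0.31, adjusted p = 9.16e-07), the last at a few reads per library in tumors (median 0.0634 CPM against 0.399 in glands). Of the protein kinase A list 2 of 9 were lower, the regulatory subunit Prkar1b (−3.65 ± 0.25, adjusted p = 2.37e-11) and the inhibitor Pkib (−1.01 ± 0.39, adjusted p = 0.0689), the latter a call that was lost without KO gland week 12 replicate 1 (log2FC 0.00272, adjusted p = 1 in edgeR), a fold that depends on the prior count because the other library of that condition held 0 reads of Pkib. The 14 other phosphodiesterases split, with 6 higher in tumors, led by Pde7b (2.78 ± 0.30), Pde8a (1.14 ± 0.13) and Pde7a (1.11 ± 0.07), and 3 lower, Pde3a (−2.72 ± 0.32), Pde1b (−1.91 ± 0.28) and Pde10a (−1.22 ± 0.28). Of 6 tested receptors and ligands the accessory proteins Ramp2 (−1.79 ± 0.34), Ramp3 (−1.55 ± 0.23) and Ramp1 (−0.60 ± 0.17) were lower, Ramp2 again at a few reads per library in tumors (median 0.0638 CPM against 0.226 in glands). Leaving out a library gave Ramp1 −0.69 to −0.44, the latter under the fold threshold. Among the 12 cAMP induced genes 6 were lower and 1 higher, with Rgs2 at −1.79 ± 0.19, Areg, an EGF receptor ligand of the mammary duct, at −1.59 ± 0.31 and Ppargc1a at 0.79 ± 0.27. The median log2FC of the lists was −0.33 for the cyclases, −0.021 for the protein kinase A list, 0.026 for the phosphodiesterases, −0.44 for the receptors and ligands and −0.55 for the cAMP induced genes, beside 0.079 for all genes, of which 8.23% were called lower and 6.69% higher. Markers of other cell types moved in the same comparison, and their part in these differences was not tested. The basal markers, of which 10 of 10 fell, are given above. Of 10 endothelial markers 4 fell and 0 rose, and their sum was 2.87 to 22.1 CPM in tumors (median 4.74) and 3.55 to 39.6 CPM in glands (median 16.4). Of 10 lymphocyte markers 2 fell and 0 rose (sum 0.131 to 2.65 CPM in tumors and 2.22 to 22.6 CPM in glands), and of 10 fibroblast markers 4 fell and 0 rose. Of 10 macrophage markers 3 rose and 1 fell, and 5 of 10 had a log2FC above 0. Most of their summed level was Cd14, with a median of 231 CPM in WT tumors and 66.3 CPM in WT glands.

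**Figure D4:**
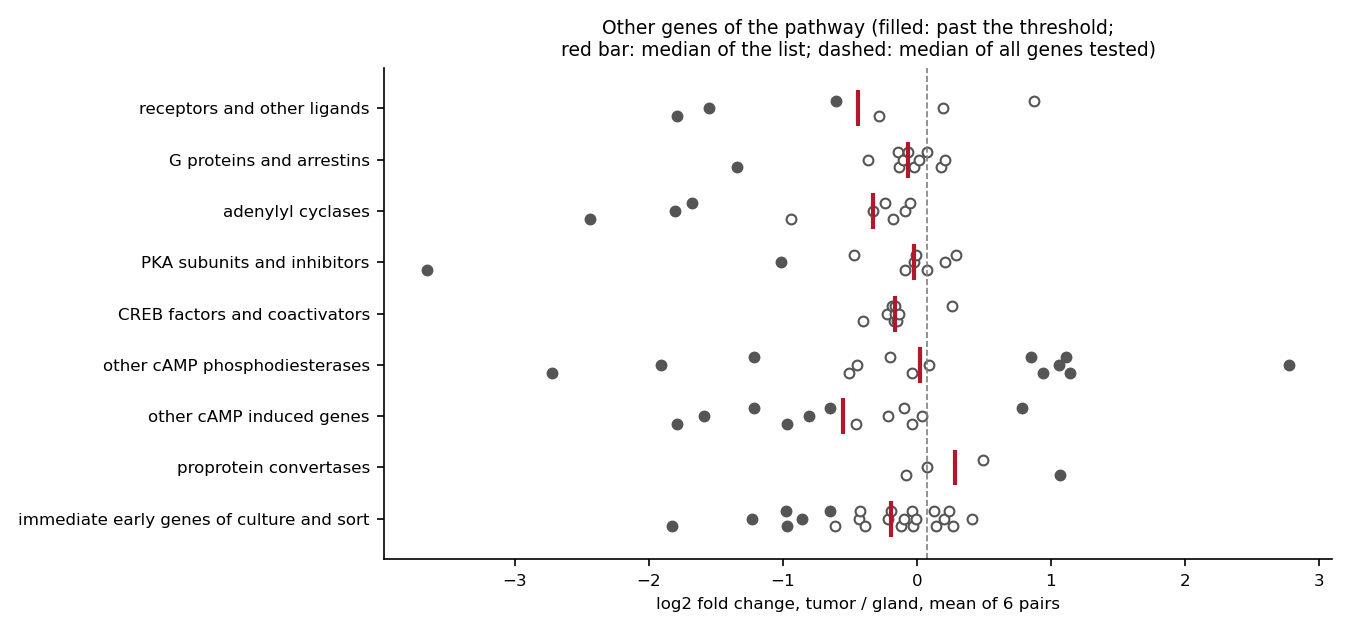
Log2FC of tumor over gland, mean of the 6 pairs (horizontal axis), for each gene of the pathway lists and the immediate early genes (vertical axis, 1 list a row); points are genes, filled where past both thresholds, red bars the median of a list and the dashed line the median of all genes (0.079). The phosphodiesterases spread to both sides of 0, from −2.72 to 2.78, and the adenylyl cyclases lie below 0.

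Whether the receptors and targets followed the level of Pthlh itself was asked within conditions, with the log2 CPM of Pthlh as a slope beside a term for each condition. Libraries of both genotypes were pooled. In KO libraries the reads come from a gene that lacks the floxed exon. There, and in the relations below, the level is of a changed transcript and not a measure of PTHrP. The median slope of all genes was itself below 0, at −0.15. Pth1r had the steepest, −2.25 ± 0.55 per doubling of Pthlh (adjusted p = 0.0225), and was the only 1 of 8 genes called, beside 5.66% of all genes at an adjusted p under 0.1. This slope rests on few reads, with a median of 7 per library and 10 of 33 libraries at 3 reads or fewer. Nr4a1 was at −0.77 ± 0.28 (adjusted p = 0.144), Nr4a2 at −0.39 ± 0.18 (adjusted p = 0.271) and Pde4b at −0.27 ± 0.11 (adjusted p = 0.21). Sik1 (−0.084 ± 0.11), Crem (−0.12 ± 0.068) and Pde4d (−0.12 ± 0.091) lay nearer to 0 than the median of all genes. Casr, at the floor of reads, gave −0.51 ± 1.03 and is not placed in this order. DESeq2 called Nr4a1 and Pth1r. With the fibroblast marker sum as a further term, added after the data were seen, Pth1r was at −1.80 (adjusted p = 0.22). Without WT tumor week 6 replicate 2, the tumor with the most Pthlh, Nr4a1 was called at −1.18 (adjusted p = 0.0147) and Pde4b was called as well (adjusted p = 0.0996). Nr4a1 was also called without WT tumor week 6 replicate 3 or WT tumor week 10 replicate 2, and Pde4b without KO tumor week 8 replicate 1.

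In the glands each condition has 2 mice. The mouse with more Pthlh had less Pde4b in 7 of 7 conditions, less Pth1r and less Nr4a1 in 6 of 7, less Nr4a2, Crem and Pde4d in 5 of 7 and less Sik1 in 4 of 7. It also had a lower immediate early sum in 6 of 7 and a lower fibroblast sum in 5 of 7. In the WT glands of week 12 both mice held 8 reads of Pth1r, so their order comes from the scaling alone. The share of all genes that fell in as many conditions was not computed, and the median slope of all genes on Pthlh was itself negative. As deviations from the condition means, Pthlh and Pde4b had a Pearson r of −0.834 over the 14 glands, with an exact permutation p of 0.0156 within conditions, the smallest that 128 orders can give, and an adjusted p of 0.25 over 16 relations. Pth1r gave −0.891 (exact permutation p = 0.0469, adjusted p = 0.312) and Nr4a1 −0.865 (exact permutation p = 0.0781, adjusted p = 0.312). None of the 16 relations passed. In the tumors, with the single WT tumor of week 12 left out, the same measure was −0.338 for Pth1r, −0.156 for Pde4b and −0.022 for Nr4a1, with adjusted p-values of 0.653, 0.702 and 1 by exact permutation.

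**Figure D5:**
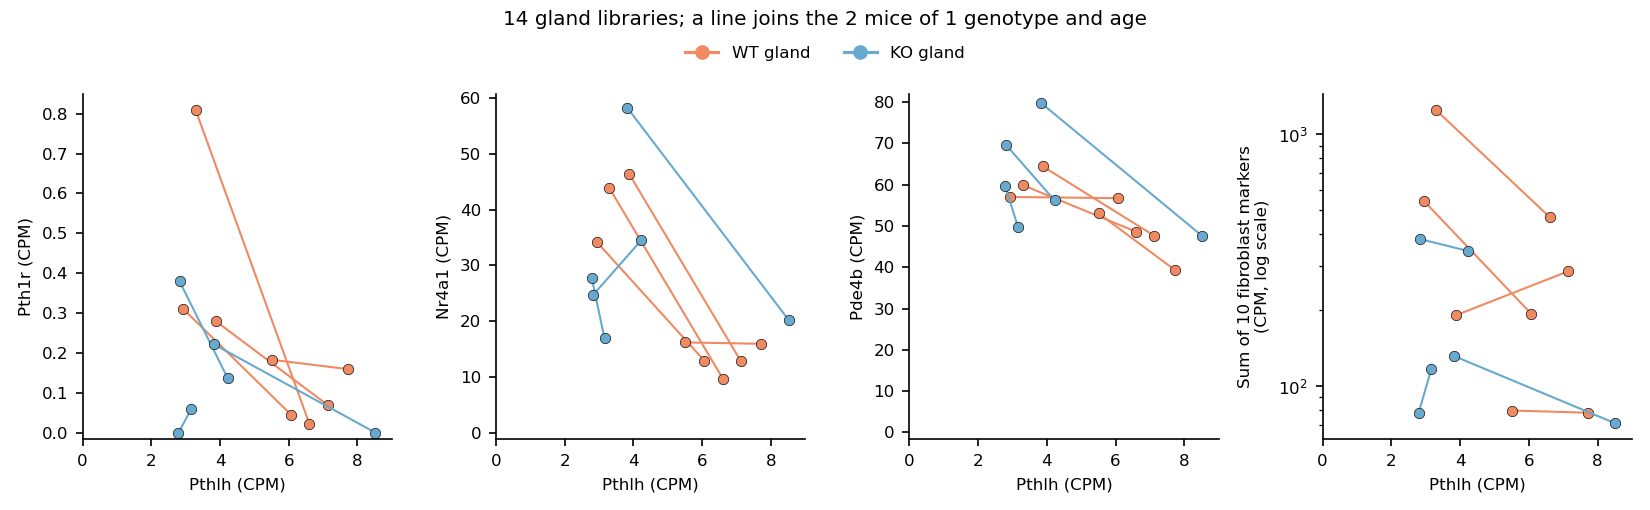
CPM of Pth1r, Nr4a1, Pde4b and, on a log scale, the fibroblast marker sum (vertical axes) against CPM of Pthlh (horizontal axes) in the 14 glands; lines join the 2 mice of a condition. The line falls in 7 of 7 conditions for Pde4b, in 6 of 7 for Pth1r and Nr4a1 and in 5 of 7 for the fibroblast sum. The share of all genes that fall as often was not computed.

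Over all glands without regard to condition, Pde4b and Pthlh had a negative correlation that passed by rank only (Pearson r = −0.674, permutation p = 0.00709, adjusted p = 0.113; Spearman rho = −0.749, permutation p = 0.00286, adjusted p = 0.0458), and r was −0.522 without the 2 most distant libraries, −0.785 within WT and −0.480 within KO. Nr4a1 gave r = −0.625 (permutation p = 0.0192, adjusted p = 0.154) and rho = −0.552 (permutation p = 0.0436, adjusted p = 0.233), with −0.879 within WT and −0.112 within KO. In tumors the largest values were −0.419 for Pde4d (permutation p = 0.074, adjusted p = 0.348) and −0.404 for Pth1r (permutation p = 0.0869, adjusted p = 0.348), with rho of −0.491 and −0.367. The fibroblast sum and Pth1r had r = 0.550 in tumors (permutation p = 0.0148, adjusted p = 0.102 over 72 relations, 0.305 without the 2 most distant libraries) and 0.562 in glands (permutation p = 0.0371, adjusted p = 0.205, 0.255 without 2), and rho of 0.489 and 0.554.

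Over all 33 libraries and 13323 other genes with a mean of at least 1 CPM (13324 for Pth1r, whose own mean is lower), the genes whose levels ordered the libraries most like Pthlh were Ints1 (Spearman rho 0.898), Dcaf15 (0.871), Ctu2 (0.866), Rae1 (0.865) and Lmln (0.864). For Pth1r they were Dcp1b (0.699), B230369F24Rik (0.697), Pygm (0.660), Dcn (0.656) and Sptbn5 (0.638), of which Dcn, the collagen-binding proteoglycan decorin, is on the fibroblast list. For Nr4a1 they were Egr3 (0.892), Fos (0.852), Rasd1 (0.834), Sod3 (0.818) and Egr1 (0.791), and Egr3, Fos and Egr1 are on the immediate early list. These values are descriptions over libraries of both tissues and genotypes.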

How the data were processed

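Total RNA of sorted GFP+ cells was sequenced from 33 mice, 1 library each, after depletion of ribosomal RNA. The authors aligned the reads with HISAT to GRCm38, took out duplicate reads by Picard 1.128, and used HTSeq to count what fell on each gene. The deposited table holds these raw counts, and a deposited table of normalized values holds a signal, the gene counts divided by size factors by the authors with DESeq2 in R 3.6.2. The counts were used throughout, and the normalized signal only as an alternative for correlations. Rows for spike-ins and transgenes (111 rows, 0.0778% of reads) were left out.

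The 36527 genes whose reads summed to 10 or more were fitted in edgeR 4.0.16 (R 4.3.3) with 1 coefficient per condition, TMM scaling and quasi-likelihood tests, and p-values were adjusted by Benjamini-Hochberg over all of them. A call needed a fold over 1.5 and an adjusted p under 0.1. All 33 libraries shared the estimate of spread. The WT tumor of week 12 entered no contrast. Fits that left out a library kept the trended dispersion of all libraries. DESeq2 1.42.0, its size factors, other filters, the groups compared alone, the replicate block and terms for ribosomal RNA, Pthlh, fibroblast, basal and immediate early levels were alternatives, the last 3 of them chosen after seeing the data. Correlations were computed in Python 3.11.15 with scipy 1.17.1 and pandas 2.3.3, on log2 CPM with a prior count of 2, with 100000 permutations, or with all orders within conditions (46656 in tumors, 128 in glands). Scripts were tested on simulated data.

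The 9 genes and the lists were chosen with earlier results of these data known. All 9 were tested in every comparison, but values are printed for only some of them by week, in glands and over time. Of each list at most 3 called genes a direction were named. Others named to complete a count were named after their values were seen. The 5 genes nearest to Pthlh, Pth1r and Nr4a1 by Spearman rho were named. Each pair of libraries of a condition differed by more than counting noise (lowest chi-square per degree of freedom 37.4 over 25 pairs), so none was counted as a duplicate. Intervals are 95%, from a normal approximation with the SE of the log2FC. They describe the uncertainty of a contrast and are somewhat narrower than the quasi-likelihood test would give. Promoters are from RefSeq (GRCm38.p6), with entries for 7 of the 9 genes; Crem and Sik1 had none.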

Additional observations from a re-analysis of the deposited data

Results flagged for a closer look

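Among 36 groups of 6 to 10 libraries, 1 per gene, genotype and tissue, 10 had a library whose distance to its nearest neighbour was beyond Dixon's 95% limit for the range of the group. Chance gives such a library in about 1 in 20 groups, and a library that stands apart for several genes counts once for each.

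The WT tumor of week 12, a single mouse, stood apart from the other WT tumors for 3 of the genes: Nr4a1 was at 62.1 CPM (next 27.5), Nr4a2 at 19.6 CPM (next 6.91) and Sik1 at 239 CPM (next 189). It entered no contrast. For Pthlh, WT tumor week 6 replicate 2 was at 6.67 CPM with 391 reads (next 3.68 CPM), and KO gland week 12 replicate 2 was at 8.52 CPM (next 4.23), the highest level of the gene in a mouse with the floxed allele. Ribosomal RNA made up 18.8% of the reads of that gland, the highest share of the 33 libraries. Pth1r was at 0.808 CPM, or 40 reads, in WT gland week 8 replicate 2 (next 0.310 CPM).

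Casr stood apart in a library of each group, on few reads: 0.154 CPM from 8 reads in WT tumor week 10 replicate 1, 0.042 CPM from 2 reads in KO tumor week 8 replicate 2, 0.102 CPM from 4 reads in WT gland week 10 replicate 2 and 0.0393 CPM from 2 reads in KO gland week 8 replicate 1. In both KO groups the value is under the floor of 3 reads.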

How the results depend on the processing

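Receptor levels are limited by depth, since Pth1r and Casr had medians of 7 and 0 reads. The calls of Pthlh and Pde4b over the 6 pairs held in every alternative fitted to them, Pde4b excepted with the Pthlh level as a term (0.44, under the fold). A term for its own level cannot test Pthlh. The fibroblast, basal and immediate early terms were fitted only to the comparisons of WT with KO and to the slope. How the calls between tissues depend on those terms was not tested. Same-numbered libraries did not deviate together (171 pairs, r −0.369 to 0.339, 21 over 0.1), so the numbers pair nothing, and with the replicate block the number of the 9 genes called stayed as it was in all 15 comparisons (2 over the 6 pairs).

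The number of the 9 genes called moved as follows; the cause was not tested. In WT at week 8 it was 3 with DESeq2, no filter, edgeR's own filter or only the groups compared, with Pthlh gained in each. With only the groups compared it was 1 in WT at week 10, 1 in KO at week 10, 0 in KO at week 12 and 2 in tumors by stage. With DESeq2 it was 1 in KO at week 8, 1 in KO at week 10, 3 by stage and 2 for the slope, and with its size factors 1 in KO at week 8. With no filter it was 1 in KO at week 10, 2 in KO at week 12 and 2 by stage, and with edgeR's own filter 1 in KO at weeks 8 and 10 and 1 by stage. For the slope it was 2 with the ribosomal RNA or basal term and 0 with the fibroblast term, which gave 1 by stage. With the Pthlh level as a term 1 gene, Pth1r, was called in glands (2.07, adjusted p = 0.0802 by edgeR), and over the 6 pairs Pth1r (−2.52, adjusted p = 0.00642), Nr4a1 (−1.09, adjusted p = 0.0193) and Pde4d (−0.62, adjusted p = 0.000418) were called. Leaving out a library gave 0 to 3 in WT at week 8, 0 to 2 in WT at week 10, 0 to 1 in KO at week 10, 0 to 2 in KO at week 12, 0 to 2 by stage and 1 to 3 for the slope; gained were Crem in WT at week 8 without tumor replicate 1, Pde4d in WT at week 10 without tumor replicate 1, Crem in KO at week 10 without gland replicate 2 and Pde4b in KO at week 12 without replicate 1 of tumor or gland. The calls lost, and those gained in WT at week 8 without gland replicate 2, by stage and for the slope, are given with the results.

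Signs turned, all far from the threshold, with the Pthlh level as a term for Nr4a2 over the 6 pairs (−0.093), Crem by stage (0.056) and Pde4d by stage (0.028). With the immediate early term they turned for Crem by stage (0.072) and for Nr4a1 (0.12), Nr4a2 (0.10) and Crem (0.035) by week, and with the fibroblast term for the slope of Pde4d (0.00430). Correlations with Pthlh turned for Casr in tumors as deviations (−0.00566) and, without libraries over 1% ribosomal RNA, for Crem in tumors (0.107) and glands (0.132) and Sik1 in glands (0.0108). Leaving out a library gave Pth1r −0.78 to 0.47 over the 6 pairs, −0.27 to 0.46 by stage and −0.36 to 2.94 in glands, Crem −0.027 to 0.030 and Pde4d −0.10 to 0.036 by stage, and Pkib −1.14 to 0.0027 over the 6 pairs. The upper ends for Pth1r over the 6 pairs and in glands and for Pkib leave KO glands of week 12 with 1 library of 0 reads, where the fold depends on the prior count.

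Over all genes the number called by stage was 404 (149 with the Pthlh term, 655 by DESeq2), by week 187 (116 with the ribosomal RNA term, 664 by DESeq2), in glands 331 (52 with the ribosomal RNA term, 1597 with the Pthlh term) and for the slope 2066 (285 with the fibroblast term, 3699 by DESeq2). With no filter it rose from 4 to 440 over time in WT tumors, from 0 to 176 in KO tumors and from 2 to 138 for the interaction. In KO at week 12 it fell from 2233 to 0 with only the groups compared. Leaving out a library gave 169 to 699 by stage, 50 to 586 by week, 60 to 775 in glands, 973 to 3447 for the slope and 4835 to 5526 over the 6 pairs (5451 with all libraries). In single pairs it gave as few as 495 of 2139 in WT at week 6 and 45 of 909 in KO at week 8, and over time in WT glands 1 of 128, so the shares of all genes printed for these comparisons move with single libraries.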

Other observations

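Beyond the cAMP lists, the proprotein convertases, which cut PTHrP and other prohormones to their active form, were measured for 4 genes. Of these Pcsk5 was higher in tumors than in glands over the 6 pairs (log2FC 1.07 ± 0.25, adjusted p = 0.00191 in edgeR), beside 6.69% of all genes called higher, and none was called between genotypes in tumors or glands. The 23 immediate early genes split by comparison. Between tissues 6 were lower in tumors and 0 higher, led by Egr2 (−1.83 ± 0.23), Klf4 (−1.23 ± 0.15) and Fosl1 (−0.98 ± 0.20), beside 8.23% of all genes called lower. Between genotypes 7 were lower in WT than in KO tumors by stage and 0 higher, beside 0.824% of all genes called lower, among them Dusp1, Atf3 and Egr3 (−1.25 ± 0.36, adjusted p = 0.0941). The call of Egr3 held in only 4 of 18 fits that left out a library. In glands 0 of the 23 were called between genotypes. Egr3, a zinc finger factor, was 1.85 to 14.9 CPM in WT tumors and 3.57 to 15.9 CPM in KO tumors.

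Within conditions the slope on Pthlh reached the threshold for 5.66% of all genes and for few genes of the lists, named here after their values were seen: Nr4a3 (−0.87 ± 0.22 per doubling of Pthlh, adjusted p = 0.0244), Pkib (−1.79 ± 0.43), Pde1b (−1.06 ± 0.32), Adcy9 (−0.35 ± 0.11), Egr1 (−0.65 ± 0.21), the luminal marker Kit (−0.71 ± 0.23) and the fibroblast markers Col1a1 (−1.37 ± 0.40) and Pdgfra (−0.85 ± 0.27) fell with it, and Dusp5 (0.46 ± 0.13) rose. The median slope was −1.53 over the 10 fibroblast markers beside −0.15 over all genes.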
